A study of Homo sapiens with 21 samples.

Results

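BJ cells at passage P30 were set against the same line at passage P24, with 3 libraries at each passage, to describe a step late in their lifespan at which transcripts of dividing cells are low. BJ is a line of human skin fibroblasts that stops dividing after a limited number of population doublings. The comparison used 6 of the 21 libraries of the series and the 15642 of 61544 listed genes that passed a count filter. The other libraries are BJ cells at P3, P11 and P33, and P11 cells treated with DOX, which the series title spells out as doxorubicin, at 50 ng/ml, or with DMSO, 3 libraries each. The labels name no treatment and no genetic change for cells at P30, P24, P3, P11 or P33. P3, P11 and P33 enter below as the other steps of the same passage series. The labels do not say whether the 3 libraries of a passage came from separate cultures, and the p-values below therefore cover the spread among libraries, which may be technical. They give no harvest day or library batch either, so passage and harvest cannot be told apart. The step was taken up with its low cell cycle transcripts already known, so that feature is described here and is not evidence gained independently.

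In a dividing cell, cyclin D with CDK4 or CDK6 and then cyclin E with CDK2 phosphorylate the RB family, which frees E2F factors to transcribe the genes of DNA replication. Genes of G2 and mitosis are switched on later by the MuvB core with B-MYB and FOXM1, and in resting cells the DREAM complex, which holds the same core with an E2F and an RB relative, shuts both waves down. Fibroblasts near the end of their lifespan leave this cycle through the CDK inhibitors p21 (CDKN1A) and p16 (CDKN2A), and loss of lamin B1 and secretion of cytokines are known marks of that state.

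The promoters of 4 genes that fell at P30 are shown because they hold the short words known from those programmes, CHR in mitotic genes and E2F in replication genes. Each window runs from 250 bases before to 30 bases after the RefSeq start (GRCh38.p14) and is written 5′ to 3′ along the gene. CDC20, the activator of the anaphase-promoting complex, lies at chr1:43358731-43359010 on the plus strand, and PLK1, a mitotic kinase, at chr16:23678639-23678918 on the plus strand. MCM2, a subunit of the replicative helicase, lies at chr3:127598161-127598440 on the plus strand, and the transcription factor gene E2F1 at chr20:33686356-33686635 on the minus strand. Capitals mark the words searched for on both strands: TTTGAA and TTCGAA, the cell cycle homology region (CHR) to which MuvB binds, CCAAT, and the E2F words TTTCCCGC, TTTCGCGC, TTTGCCGC and TTTGGCGC.
CDC20: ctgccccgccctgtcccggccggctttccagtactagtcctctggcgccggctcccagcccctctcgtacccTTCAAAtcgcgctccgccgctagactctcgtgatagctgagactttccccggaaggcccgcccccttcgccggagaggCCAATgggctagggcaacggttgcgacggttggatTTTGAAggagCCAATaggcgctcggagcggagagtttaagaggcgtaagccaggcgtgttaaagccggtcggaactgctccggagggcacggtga
PLK1: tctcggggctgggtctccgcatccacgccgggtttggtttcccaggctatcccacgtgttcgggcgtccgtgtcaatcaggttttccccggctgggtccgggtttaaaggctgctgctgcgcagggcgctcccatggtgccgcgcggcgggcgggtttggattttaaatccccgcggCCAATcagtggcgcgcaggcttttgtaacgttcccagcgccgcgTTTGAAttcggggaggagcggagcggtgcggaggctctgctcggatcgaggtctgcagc
MCM2: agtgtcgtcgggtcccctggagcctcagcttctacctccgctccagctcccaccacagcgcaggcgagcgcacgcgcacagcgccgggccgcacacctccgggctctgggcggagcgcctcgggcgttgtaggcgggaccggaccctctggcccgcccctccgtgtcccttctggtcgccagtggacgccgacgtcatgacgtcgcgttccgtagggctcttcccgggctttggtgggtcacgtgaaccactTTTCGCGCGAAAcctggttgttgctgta
E2F1: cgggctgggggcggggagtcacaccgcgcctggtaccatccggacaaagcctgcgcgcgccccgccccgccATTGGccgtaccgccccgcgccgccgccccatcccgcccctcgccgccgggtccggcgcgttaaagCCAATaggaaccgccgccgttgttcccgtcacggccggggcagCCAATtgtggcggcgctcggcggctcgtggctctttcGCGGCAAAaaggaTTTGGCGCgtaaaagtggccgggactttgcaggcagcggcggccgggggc

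A CHR word stood 65 bases before the start of CDC20 and 29 bases before that of PLK1. CDC20 held a further CHR match, TTCAAA on the reverse strand, 178 bases before the start. In MCM2 the word TTTCGCGC and its reverse-strand partner GCGCGAAA overlapped, 3 and 7 bases after the start. In E2F1 E2F words stood 20 and 33 bases before the start. Of 53 tested G2 and M phase genes 44 had a window in the RefSeq table, and 34 of these (77.3%) held a CHR word, against 19.5% of all 27305 genes with a window. Of the 44, 27 (61.4%) held both CHR and CCAAT, against 7.85% of all genes, and 2 (4.55%) held an E2F word, against 3.99% of all genes and 6.31% of the 11015 tested genes with a window. Genes of origin licensing and the replication fork are given for comparison: 21 of 41 (51.2%) held an E2F word and 2 (4.88%) a CHR word. A gene was counted if any of its windows held the word. Among mitotic kinases, kinesins and cytokinesis genes 28 of 35 with a window (80%) held a CHR word and 2 (5.71%) an E2F word. These are matches of letters and not measured binding.

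The 3 P30 libraries held 12.95 to 19.07 M counts and the 3 P24 libraries 16.91 to 21.87 M. In a principal component analysis of the 15 passage libraries the first component (49.8% of the variance) ran in passage order, and the next (15.7%) set P30, at -42.99 to -39.65, apart from P33, at 28.45 to 32.85. Fibroblast identity genes, 17 of 17 of them tested, summed to 33759 to 34697 CPM at P30 and 36266 to 38319 CPM at P24. The keratinocyte genes KRT5, KRT1 and DSC3, the leukocyte genes CD3E, LYZ, AIF1 and TYROBP, the endothelial gene CLDN5 and the melanocyte and Schwann cell genes TYR and SOX10 had no counts in any of the 6 libraries. None of them overlaps another gene on its strand. Genes that lie wholly inside another on the same strand, 9429 in all, were at 0 in the 15 passage libraries, whereas 3950 of them were above 0 in cells given DOX or DMSO. Summed keratinocyte markers stood at 280 to 306 CPM at P30 and 407 to 426 CPM at P24, leukocyte markers at 2.07 to 2.34 and 2.46 to 2.87 CPM, and endothelial markers at 8.45 to 9.53 and 9.23 to 10.3 CPM. Melanocyte and Schwann cell markers, carried by MITF, stood at 74.3 to 78.3 CPM at P30 and 42.1 to 48.9 CPM at P24, and adipocyte and smooth muscle markers at 82.3 to 84.1 and 116 to 121 CPM. Means at both passages were under 1 CPM for 9 of 13 keratinocyte markers, among them KRT14, CDH1, EPCAM and TP63, so the remaining members carry that sum. The same held for 7 of 9 endothelial, 8 of 9 leukocyte and 6 of 9 adipocyte and smooth muscle markers. The part of these markers in the results below was not tested.

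At P30 against P24, 3053 genes (19.5% of those tested) rose and 3234 (20.7%) fell (edgeR quasi-likelihood test, Benjamini-Hochberg adjusted p under 0.05). By at least 2-fold, 371 (2.37%) rose and 758 (4.85%) fell. Many of the larger changes were at low counts. Among genes with a mean of at least 5 CPM over the 6 P30 and P24 libraries, 117 rose and 200 fell by 2-fold. The median log2 difference of all genes tested was -0.003. In 7768 genes (49.7%) the 3 P30 libraries did not overlap the 3 P24 libraries. CPM are counts scaled to 1 M per library on TMM-adjusted sizes, and log2 differences are P30 minus P24, with the standard error (SE) of the fit.

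Cell cycle transcripts fell in most lists, with lower medians in mitotic lists than in replication lists. Among the 53 tested genes of G2 and M phase, 48 fell and 1 (RANGAP1) rose, with a median log2 difference of -0.79. Among the 42 of S phase, 37 fell and 1 (RPA2) rose, with a median of -0.54, and RPA2 was not called without P30 replicate 1. Mitotic kinases, kinesins and cytokinesis genes had the lowest median of all lists with at least 10 tested members, -0.88, and 39 of 42 fell while none rose. These shares stand beside 20.7% lower and 19.5% higher among all genes. RNA was taken from bulk cultures, in which fewer dividing cells and less of each transcript per cell cannot be told apart.

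**Figure D1:**
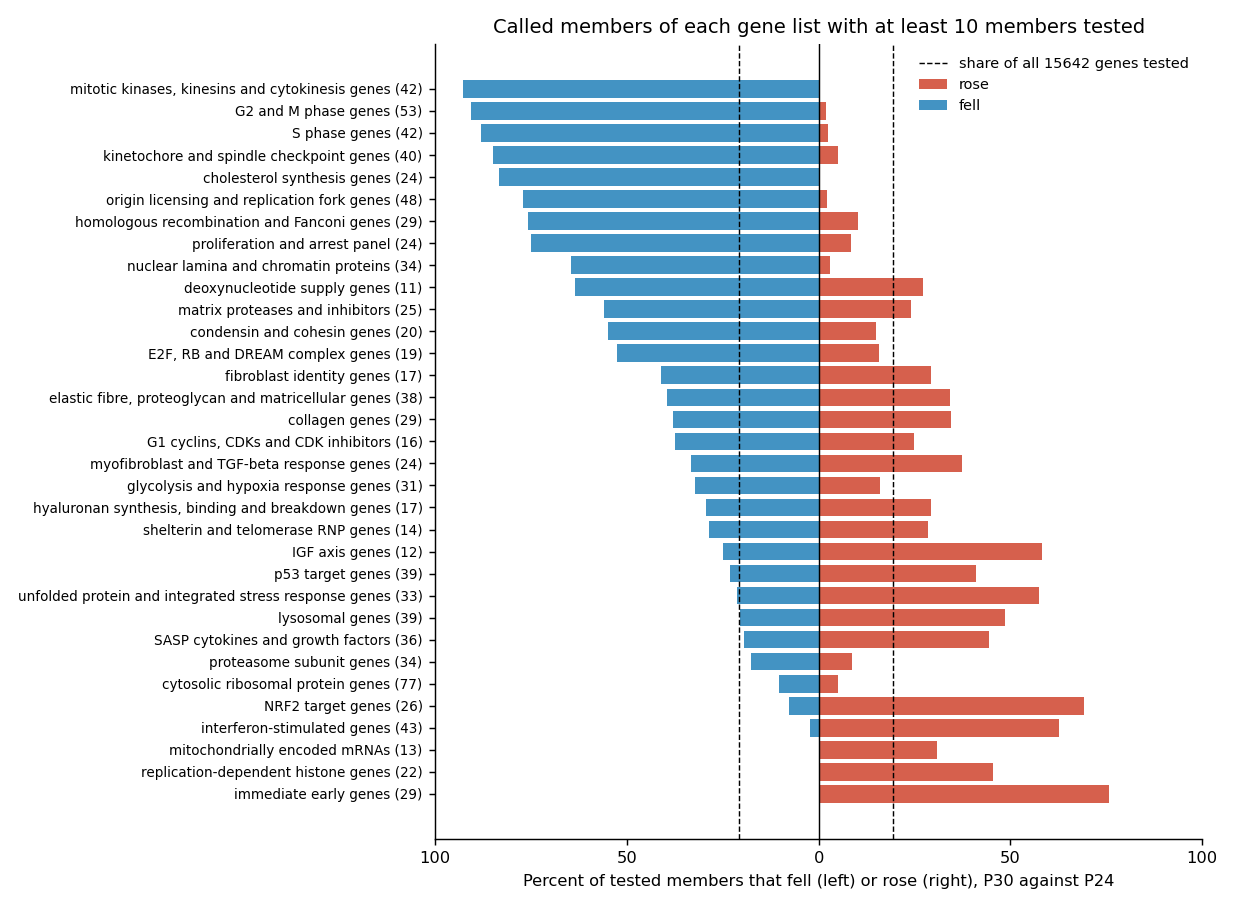
Percent of the tested members of each gene list that fell (bars to the left) or rose (bars to the right) at P30 against P24, with the number tested in brackets; dashed lines give the shares of all 15642 genes tested, 20.7% and 19.5%. Mitotic, G2 and M, S phase, kinetochore and cholesterol lists reach farthest to the left, and immediate early, NRF2 target and interferon-stimulated genes farthest to the right.

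A panel of 24 proliferation and arrest genes had 18 that fell, 2 that rose and 4 that did not pass. MKI67 (ENSG00000148773.14, chr10:128096659-128126423 on GRCh38), whose protein coats mitotic chromosomes and marks cycling cells, had 105, 113 and 111 CPM at P30, against 266, 257 and 278 CPM at P24. All 3 P30 libraries lay below all 3 of P24, and the log2 difference was -1.28 (SE 0.0628, adjusted p = 1.12e-14). CCNA2 (ENSG00000145386.11, chr4:121816444-121823883), cyclin A, which drives S phase and entry into mitosis, had 45.2, 49.7 and 42.4 CPM at P30, against 105, 89.1 and 94.6 CPM at P24. It fell by 1.07 on the log2 scale (SE 0.0707, adjusted p = 3.23e-12), again without overlap. The lamina gene LMNB1 (ENSG00000113368.12, chr5:126776623-126837020) had 14.4, 16.3 and 14.9 CPM at P30, against 33.3, 33.7 and 36.5 CPM at P24, a log2 difference of -1.18 (SE 0.0785, adjusted p = 3.33e-12). E2F8, an E2F-family repressor of late S phase, fell by 1.47 on the log2 scale at a low level, 0.856, 1.58 and 1.83 CPM at P30 and 3.37, 4.11 and 4.01 CPM at P24. Among the others that fell, log2 differences ran between -1.17 for the checkpoint kinase BUB1 and -0.22 for the CDK4 and CDK6 inhibitor CDKN2C. CDKN2C lost its call in 6 of the alternative fits, among them those without P24 replicate 2 or without any single P30 replicate.

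**Figure D2:**
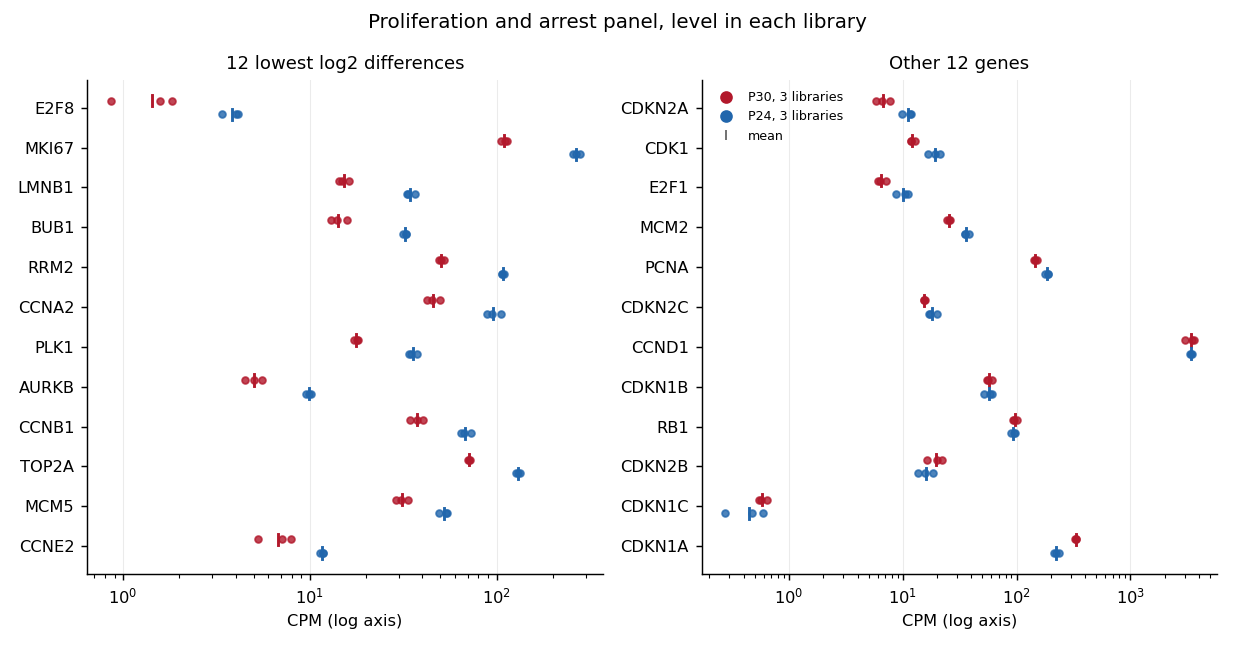
Level of the 24 panel genes in each of the 3 P30 libraries (red, upper row of each gene) and the 3 P24 libraries (blue, lower row), in CPM on a log axis, ordered from the lowest to the highest log2 difference, with ticks at the means. From E2F8 down to CDKN2C the P30 libraries lie below those of P24 without overlap, and CDKN1A, at the other end, has P30 above, at 323 to 335 CPM against 214 to 235 CPM.

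The G1 machinery moved less uniformly. CDKN1A (ENSG00000124762.14, chr6:36676460-36687337), encoding p21, had 335, 323 and 332 CPM at P30, against 214, 222 and 235 CPM at P24. The P30 libraries were all higher, by 0.56 on the log2 scale (SE 0.0461, adjusted p = 2e-10). CDKN2A, encoding p16 and ARF, had 5.82, 7.66 and 6.62 CPM at P30, against 11.6, 9.75 and 11.7 CPM at P24, and fell by 0.71 on the log2 scale (adjusted p = 8.08e-05). CDKN2B, encoding p15, had 19.9, 22.3 and 16.2 CPM at P30, against 18.4, 15.6 and 13.7 CPM at P24, with a log2 difference of 0.32 (adjusted p = 0.0488). Its groups overlapped, and the call was lost in 8 of the alternative fits, with adjusted p between 0.0502 and 0.281, among them those without P24 replicate 2 or 3 or without P30 replicate 1 or 2. Cyclin D1 (CCND1) stood at 3484, 3620 and 3047 CPM at P30 and 3438, 3338 and 3464 CPM at P24, and with CDKN1B, RB1 and CDKN1C it did not pass. CCND3, another D-type cyclin, rose by 0.61 (adjusted p = 8.48e-07) and CDK6 by 0.25, whereas CCNE2, a cyclin E, fell by 0.75 and its partner CDK2 by 0.46. CCNE1 did not pass, at 11.1, 11 and 10.8 CPM at P30 and 11.7, 10.1 and 11.3 CPM at P24. Of the 16 tested genes of this list 6 fell and 4 rose, with a median of -0.01. CCND3, CDK6 and RB1 each overlap the span, introns included, of another gene on the same strand (called overlapping from here on). This makes their counts less certain, although shared exons were not checked. Of the 15642 genes tested 4989 are overlapping genes. The fit without them does not test them, so list counts given without overlapping genes cover only the members left. In that fit 1 member of this list rose.

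Among transcriptional regulators of the cycle 10 of 19 fell and 3 rose, 6 fell without P24 replicate 3, and 1 rose without overlapping genes. FOXM1, which drives G2 and M genes, had 21.9, 23.3 and 25.0 CPM at P30, against 42.7, 40.9 and 47.2 CPM at P24 (log2 difference -0.91, adjusted p = 1.39e-10). MYBL2, encoding B-MYB, had 14.2, 15.6 and 14.4 CPM at P30, against 30.1, 30.9 and 34.7 CPM at P24 (log2 difference -1.11, adjusted p = 1.82e-11). For both genes the highest P30 library was well under the lowest P24 library. Of the 8 E2F genes E2F1, E2F2, E2F4, E2F7 and E2F8 fell, E2F6 rose by 0.30, and E2F3 and E2F5 did not pass. E2F2 and E2F4 were not called with DESeq2. Of the RB family RBL1 fell by 0.44, while RB1 had a log2 difference of 0.04 and RBL2 of 0.01. In the MuvB core LIN9 fell by 0.41 and LIN54 rose by 0.49, and LIN52 and RBBP4 did not pass. RB1, RBL1 and LIN54 are overlapping genes.

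Replication genes fell in some complexes and not in others. All 6 subunits of the MCM2 to MCM7 helicase fell, by log2 differences of -0.76 to -0.44, and did so under each scaling tried. MCM5 had 33.4, 28.8 and 30.9 CPM at P30, against 53.8, 54.3 and 49.3 CPM at P24, and MCM2 had 25.8, 24.7 and 25.4 CPM at P30, against 38.4, 35 and 35.1 CPM at P24. The helicase cofactors CDC45 and GINS1 to GINS4 fell as well, between -1.33 for GINS4 and -0.41 for GINS3, which was not called with the median-of-ratios size factors or with DESeq2. TICRR, which helps load CDC45 at origins, fell by 1.42 on the log2 scale and overlaps another gene. Of the origin recognition complex, ORC1, the subunit known to vary through the cycle, fell to 3.08, 2.55 and 2.95 CPM at P30, against 5.68, 6.57 and 5.79 CPM at P24 (log2 difference -1.07, adjusted p = 3.35e-06). ORC2, ORC3, ORC4 and ORC5 did not pass, with log2 differences of 0.04, 0.12, 0.01 and -0.07, and ORC6 was not called with DESeq2. The single-strand binding complex did not share the fall: RPA2, whose groups overlapped, rose by 0.23, and RPA1 and RPA3 did not pass. PCNA, the sliding clamp, had 152, 145 and 141 CPM at P30, against 188, 189 and 178 CPM at P24, a log2 difference of -0.34, and like MCM7 is an overlapping gene. In the whole list of origin and fork genes 37 of 48 fell and 1, RPA2, rose (none without P30 replicate 1), with a median of -0.42.

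Genes of deoxynucleotide supply fell in 7 of 11 and rose in 3, with a median of -0.56. RRM2, the S phase subunit of ribonucleotide reductase, had 52.0, 50.6 and 49.0 CPM at P30, against 107, 107 and 109 CPM at P24 (log2 difference -1.09, SE 0.0714, adjusted p = 2.6e-12). TK1, thymidine kinase, had 15.1, 15.9 and 13.9 CPM at P30, against 36.5, 34.2 and 44.0 CPM at P24 (log2 difference -1.35, adjusted p = 2.35e-11). Neither gene had a P30 library near the P24 range. RRM2B, the p53-induced subunit that serves resting cells, rose to 179, 192 and 173 CPM at P30, against 145, 138 and 145 CPM at P24 (log2 difference 0.35, adjusted p = 4.46e-06). The dNTP hydrolase SAMHD1 rose by 0.39 (adjusted p = 0.0243), although one P24 library, at 117 CPM, lay within the P30 range of 117 to 124 CPM. The other that rose was TYMP, an overlapping gene, and 1 of the list rose with DESeq2, without P24 replicate 2 or without P30 replicate 2.

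Mitotic genes were lower across kinetochore, spindle and cytokinesis. All 4 subunits of the NDC80 complex, which holds microtubules at the kinetochore, fell by log2 differences of -1.36 to -0.93. NUF2 had 7.65, 7.23 and 7.34 CPM at P30, against 17.6, 19.7 and 19.5 CPM at P24 (SE 0.105, adjusted p = 6.51e-11). CDC20 had 6.68, 7.61 and 6.54 CPM at P30, against 15.6, 17.8 and 17.5 CPM at P24, a log2 difference of -1.28 (SE 0.11, adjusted p = 4.55e-10). In both the groups were far apart. In the kinetochore and checkpoint list as a whole 34 of 40 fell and 2, CENPL and NSL1, rose, with a median of -0.72. CENPC, which sits at centromeres throughout the cycle, did not pass, at a log2 difference of 0.07. All 4 genes of the chromosomal passenger complex fell, between -1.14 for BIRC5 and -0.31 for INCENP. PLK1 had 17.9, 18.0 and 17.2 CPM at P30, against 35, 33.8 and 37.7 CPM at P24 (2.01-fold lower at P30, adjusted p = 5.28e-10). KIF20A, a kinesin of cytokinesis, had 21.5, 21.5 and 22.2 CPM at P30, against 52.8, 52.7 and 54.7 CPM at P24 (log2 difference -1.30, adjusted p = 1.2e-12). PTTG1, encoding securin, and KIFC1, a spindle kinesin, each fell by 1.35. In this last list WEE1, KIF18A and FZR1 did not pass.

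Genes of chromosome structure are given by complex. Of 8 condensin subunits 7 fell, led by NCAPH at 6.39, 6.52 and 6.06 CPM at P30, against 13.9, 12.6 and 12.8 CPM at P24 (log2 difference -1.04, adjusted p = 1.37e-08). NCAPH2 did not pass, and NCAPD3 was not called with DESeq2. Of 5 cohesin genes 1 fell and 1 rose, both overlapping genes, and the difference between the complexes was not tested. SMC1A and SMC3 had log2 differences of -0.07 and -0.03 and did not pass, STAG1 fell by 0.20 and RAD21 rose by 0.15. In the homologous recombination and Fanconi list 22 of 29 fell and 3 rose (1 without P24 replicate 1 or 2 or P30 replicate 2 or 3), with the polymerase gene POLQ at -0.92 and FANCD2 at -0.90. Among nuclear lamina and chromatin proteins 22 of 34 fell and 1 rose. Of the fewer members tested without overlapping genes 13 fell. The 1 rise was lost without P24 replicate 1 or 3 or P30 replicate 1 or 2. HMGA1, an architectural chromatin protein, had 232, 232 and 206 CPM at P30, against 544, 594 and 527 CPM at P24 (log2 difference -1.31, adjusted p = 6.35e-16). UHRF1, which guides maintenance methylation of DNA, fell by 1.17. The lamins LMNB2 and LMNA fell by 0.48 and 0.34. HMGA1, UHRF1, LMNB2, FANCD2, STAG1 and RAD21 are overlapping genes.

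Transcripts of replication-dependent histones, which normally lack a poly(A) tail, were higher while the S phase list was lower. Of 58 listed genes 22 passed the filter, and of these 10 rose and none fell, with a median of 0.47. The list was also higher after each neighbouring step. From P11 to P24, 12 of the 22 rose and none fell, with a median of 0.73. From P30 to P33, 13 rose and 1 fell, with a median of 0.54. From P3 to P11, 3 rose and 4 fell, with a median of -0.18. Since RNA was poly(A)-selected, these counts come mainly from tailed transcripts, and the genes are near-identical copies, so the share of each is uncertain. H4C8 had 20.4, 20.5 and 21.7 CPM at P30, against 12.4, 11.7 and 11.4 CPM at P24 (log2 difference 0.82, adjusted p = 2.2e-09). All 3 P30 libraries lay above those of P24, as they did for H2BC12 (log2 difference 0.72) and H1-2 (0.64).

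The step can be set beside the others of the passage series, which span unequal numbers of passages. For each library the level of a list was taken as the mean of log2(CPM + 0.5) over its tested members, less its P24 mean. On that scale the G2 and M list had its 3 libraries between 0.66 and 0.73 at P3, between 0.00 and 0.23 at P11, at 0.00 at P24, between -0.74 and -0.73 at P30 and between -0.31 and -0.18 at P33. P30 was the lowest passage for it, with no library of another passage in its range. The S phase list lay between 0.35 and 0.46 at P3, between 0.17 and 0.29 at P11, between -0.02 and 0.01 at P24, between -0.55 and -0.49 at P30 and between -0.19 and -0.18 at P33.

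**Figure D3:**
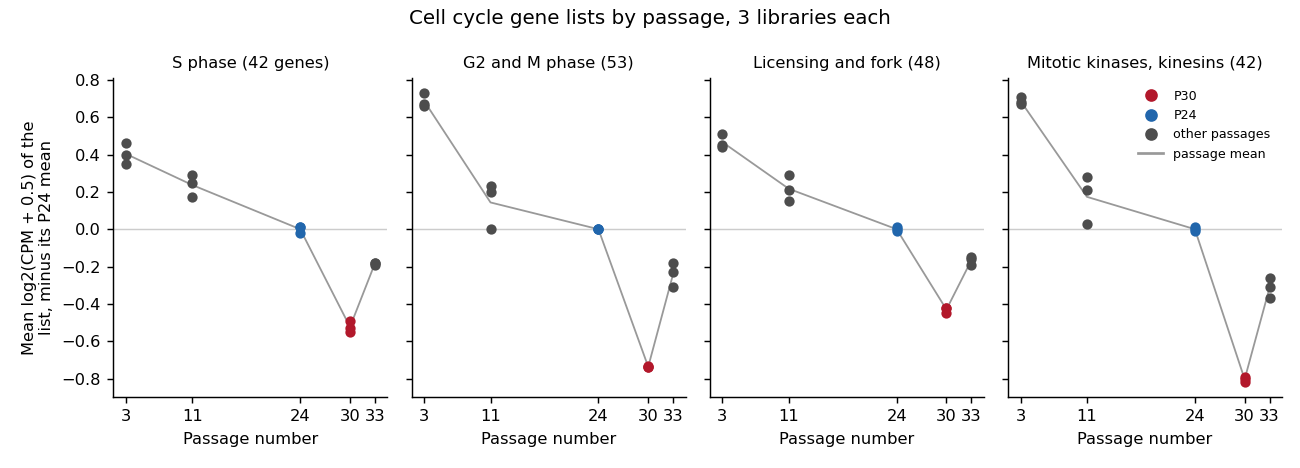
Mean log2(CPM + 0.5) over the tested members of 4 cell cycle lists, less the list's P24 mean, in each of 3 libraries per passage against passage number; grey lines join the passage means, red points are P30 and blue points P24. In all 4 lists the P30 libraries are the lowest, between -0.74 and -0.73 for G2 and M genes, and P33 lies between P30 and P24.

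From P3 to P11, over 8 passages, 45 of 53 G2 and M genes fell and 2 rose (27.8% and 24.6% of all genes did so), with a median of -0.57. From P11 to P24, over 13 passages, 25 fell and 2 rose (19.1% and 19.5% of all genes), with a median of -0.15. The step from P24 to P30 spans 6 passages, so its median of -0.79 comes to -0.132 per passage, beside -0.071 from P3 to P11, -0.011 from P11 to P24 and 0.189 from P30 to P33. At P33 against P30, over 3 passages, 42 of the 53 rose and 2 fell (27.8% and 25.7% of all genes), with a median of 0.57. For S phase genes the medians were -0.18, -0.24, -0.54 and 0.40 in these 4 steps, with 19, 21, 37 and 0 of 42 falling. The steps from P11 to P24 and from P30 to P33 share P24 or P30 libraries with the step described here, so only the first shares none with it.

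The difference between the P24 to P30 step and the P3 to P11 step was tested gene by gene. It was more negative for 24 of 53 G2 and M genes and less negative or more positive for 7 (23.4% and 24.6% of all genes were lower and higher in this test). For S phase genes it was more negative in 26 of 42 and higher in 1. CCNA2 had a log2 change of -0.10 (SE 0.0656, adjusted p = 0.206) from P3 to P11, and its change from P24 to P30 was lower by -0.97 (SE 0.0965, adjusted p = 8.56e-09). LMNB1 was also lower, with -0.15 from P3 to P11 and a difference of -1.03 (SE 0.103, adjusted p = 8.15e-09). HMGA1 had 0.12 from P3 to P11 and a difference of -1.43 (SE 0.0759, adjusted p = 8.08e-14). For several mitotic genes the difference did not pass. CDC20 changed by -1.26 from P3 to P11, with a difference of -0.02 (SE 0.14, adjusted p = 0.904), KIF20A by -1.26, with a difference of -0.04 (SE 0.108, adjusted p = 0.778), and PLK1 by -0.94, with a difference of -0.07 (SE 0.115, adjusted p = 0.659). CCNB1, cyclin B1, fell more in the earlier step, by 1.10, with a difference of 0.23 (SE 0.0889, adjusted p = 0.0366). Against the P11 to P24 step the change was lower for 40 G2 and M genes and 15 S phase genes (18.3% of all genes), and against P33 minus P30 it was lower for 48 and 35 (22.5% of all genes), each in a contrast that uses P24 or P30 on both sides.

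The 10 largest falls, chosen for groups that do not overlap, were in genes of varied function. RGCC (ENSG00000102760.13, chr13:41457550-41470871), a regulator of CDK1 activity, had 0.913, 0.707 and 1.04 CPM at P30, against 11.2, 12.9 and 12.9 CPM at P24. Its log2 difference of -3.83 (SE 0.195, adjusted p = 2.48e-14) was the largest fall by the naming rule, and at P33 it stood at 4.99 ± 1.26 CPM (SD, n = 3). HAPLN1, a link protein that ties proteoglycans to hyaluronan, had 0.856, 0.652 and 0.957 CPM at P30, against 7.46, 8.82 and 7.61 CPM at P24 (log2 difference -3.29, adjusted p = 1.93e-12). NFE2L3, a relative of NRF2, had 1.03, 1.52 and 1.12 CPM at P30, against 8.82, 10.3 and 12.1 CPM at P24 (log2 difference -3.08). In each of these the P30 libraries lay far under those of P24. The other 7 of the 10 largest falls were DENND2A, MEDAG, GPM6B, NEFL, HAS2, NTM and SHROOM2, with log2 differences of -3.46 to -2.66. NEFL and NTM are overlapping genes. CHRM3, a muscarinic receptor named for its difference from the P3 to P11 step, had 2, 0 and 0 counts at P30, against 44, 63 and 53 counts at P24.

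The synthases of hyaluronan, the long sugar of the skin matrix, went opposite ways. HAS2 had 2.17, 1.85 and 2.31 CPM at P30, against 12, 11.4 and 19.3 CPM at P24 (log2 difference -2.79, SE 0.204, adjusted p = 2.35e-11). HAS3 had 5.48, 4.78 and 6.38 CPM at P30, against 0.947, 0.657 and 0.775 CPM at P24 (log2 difference 2.79, SE 0.207, adjusted p = 2.86e-11). All 3 P30 libraries were low for HAS2 and high for HAS3, which the naming rule required. The directions were the same under each scaling tried, and HAS1 was not among the genes tested. At P33 HAS2 stood at 7.55 ± 0.837 CPM and HAS3 at 2.27 ± 0.361 CPM (SD, n = 3). Of 17 tested genes of hyaluronan handling 5 fell and 5 rose (3 without overlapping genes), beside 20.7% and 19.5% of all genes.

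The largest rises were led by immediate early genes, which answer growth factors and stress within minutes. FOS had 7.82, 20 and 4.39 CPM at P30, against 0.651, 0.657 and 0.593 CPM at P24 (log2 difference 4.14, SE 0.879, adjusted p = 0.000453). EGR1 had 132, 330 and 122 CPM at P30, against 21.1, 19.6 and 29.9 CPM at P24 (log2 difference 3.04, SE 0.304, adjusted p = 7.92e-09). P30 replicate 2 was the highest of the 3 in both genes, and all P30 libraries were above P24, which the naming rule required. Of 29 immediate early genes 22 rose and none fell, with a median of 0.69, beside 19.5% and 20.7% of all genes. From P11 to P24, a step that shares the P24 libraries, 14 of the 29 had fallen and 2 had risen, with a median of -0.32. In that step FOS fell by 2.78 and EGR1 by 1.53. The difference from the P3 to P11 step was higher for 16 of the 29 and lower for 1. It passed neither for FOS (edgeR adjusted p = 0.0959) nor for EGR1 (0.176). CCN2, a matricellular target of TGF-beta and YAP, had 927, 1009 and 1008 CPM at P30, against 310, 299 and 313 CPM at P24 (log2 difference 1.68, SE 0.0492, adjusted p = 4.19e-19), without the spread of FOS and EGR1. PDE4B, which degrades cyclic AMP, had 139, 144 and 147 CPM at P30, against 31.0, 28.4 and 33 CPM at P24 (log2 difference 2.21, adjusted p = 4.19e-19), and PCDH10, a protocadherin, had 89.2, 85.2 and 92.9 CPM at P30, against 19.8, 20.2 and 19.3 CPM at P24 (log2 difference 2.17, adjusted p = 4.01e-20). Their replicates lay close together in both groups. EDN1, endothelin-1, rose by 2.26, and DLX2, SAMD11, LYPD6B and ID4 by 2.73, 2.61, 2.53 and 2.17. At P33 the means of PDE4B, PCDH10 and EDN1 were 66.2, 20.9 and 9.68 CPM.

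**Figure D4:**
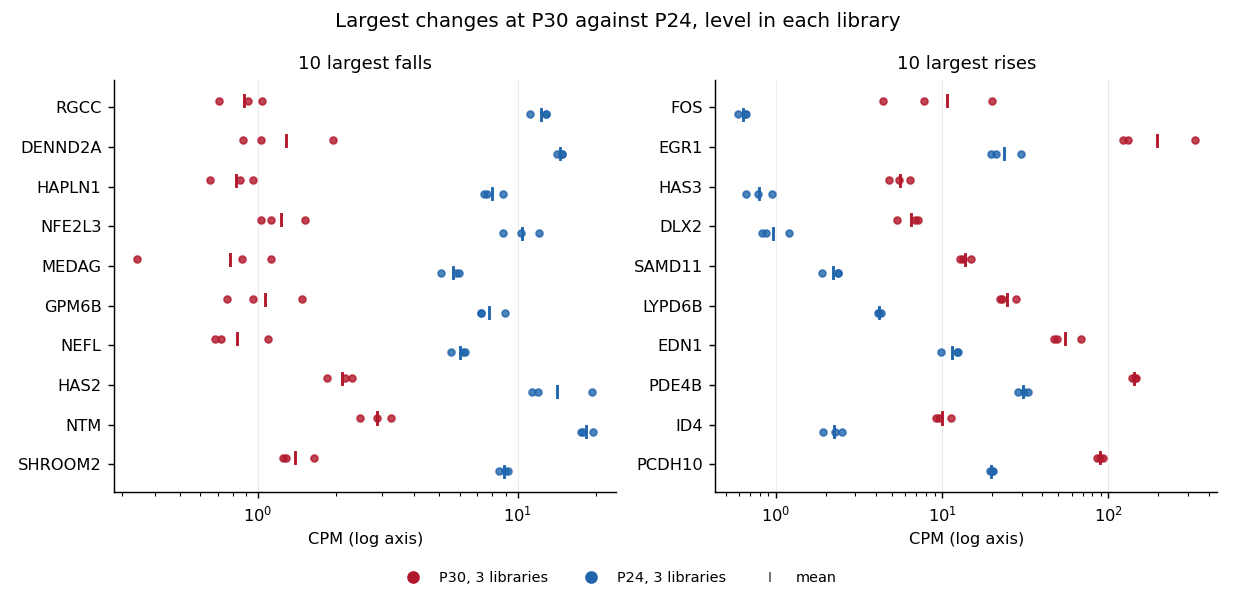
Level of the 10 protein-coding genes with the largest falls and the 10 with the largest rises in each of the 3 P30 libraries (red, upper row of each gene) and the 3 P24 libraries (blue, lower row), in CPM on a log axis, with ticks at the means. The genes were chosen for groups that do not overlap, and FOS is the most spread at P30, from 4.39 to 20 CPM.

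Cholesterol synthesis genes fell nearly throughout: 20 of 24 fell and none rose (1 rose without P30 replicate 1), with a median of -0.70. INSIG1, a sterol-regulated brake on the SREBP factors, had 47.0, 45.2 and 33.7 CPM at P30, against 163, 148 and 116 CPM at P24 (log2 difference -1.75, SE 0.11, adjusted p = 1.2e-12). HMGCS1, which makes HMG-CoA, had 66.0, 66.7 and 56.4 CPM at P30, against 153, 163 and 128 CPM at P24 (log2 difference -1.23, SE 0.0803, adjusted p = 2.67e-12). The P30 values were all lower in both. The squalene epoxidase gene SQLE fell by 1.10, and SREBF2, which encodes the factor that drives these genes, did not pass. From P3 to P11 21 of the 24 had risen and 1 had fallen, and the difference between the 2 steps was lower for 21 of the 24. From P11 to P24, a step that shares the P24 libraries, 20 of the 24 had already fallen and none had risen, with a median of -0.45. At P33 the list level was -0.81 to -0.63, against -0.68 to -0.66 at P30.

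Interferon-stimulated genes were higher, on a baseline that varied at P24. Of 43 genes 27 rose and 1 fell, with a median of 0.49, but 13 rose without P24 replicate 2 and 16 with DESeq2, and none fell without P24 replicate 1 or 3 or P30 replicate 2 or 3. The list level was 0.40, 0.60 and 0.72 at P30, against 0.10, -0.41 and 0.31 at P24. The highest P24 library thus came close to the lowest of P30. From P3 to P11, 29 of the 43 had risen and none had fallen (24.6% and 27.8% of all genes did so), with a median of 0.59. The difference between that step and the P24 to P30 step was higher for 3 genes and lower for 5 (24.6% and 23.4% of all genes). From P11 to P24, 15 rose and 2 fell (19.5% and 19.1% of all genes). IFI6 had 457, 474 and 405 CPM at P30, against 160, 128 and 228 CPM at P24 (log2 difference 1.37, SE 0.217, adjusted p = 1.31e-05), and overlaps another gene. MX1, a GTPase that blocks viruses, had 624, 769 and 797 CPM at P30, against 393, 218 and 511 CPM at P24 (log2 difference 0.96, SE 0.292, adjusted p = 0.010). For both genes P24 replicate 2 was the lowest library and P24 replicate 3 the highest of its group.

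**Figure D5:**
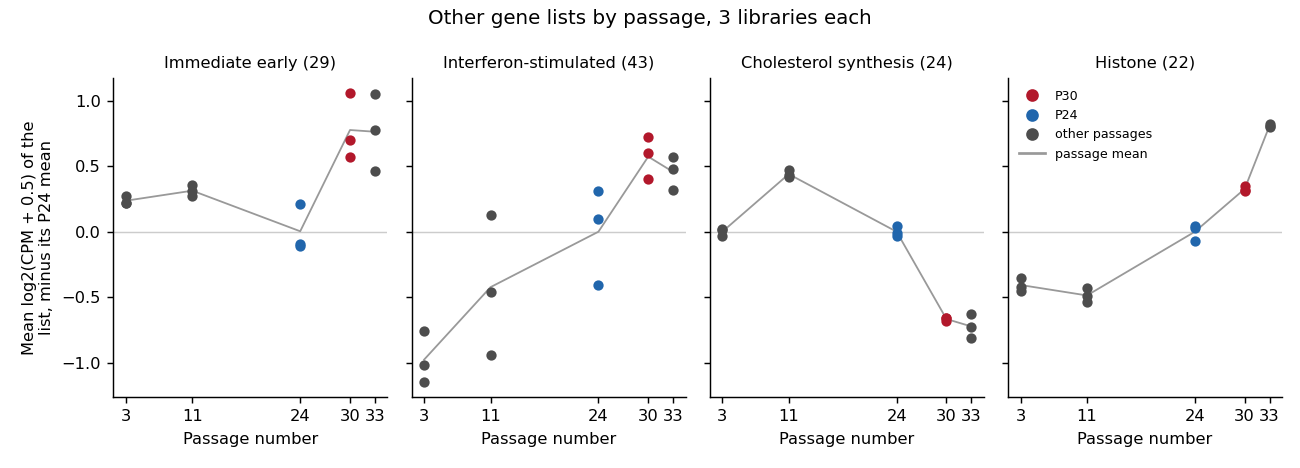
Mean log2(CPM + 0.5) over the tested members of 4 further lists, less the list's P24 mean, in each of 3 libraries per passage against passage number; grey lines join the passage means, red points are P30 and blue points P24. Immediate early and interferon-stimulated genes spread widely among replicates (P24 between -0.41 and 0.31 for the interferon list), whereas cholesterol genes at P30 lie between -0.68 and -0.66.

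Stress and secretory genes gave mixed pictures, and their counts stand beside 19.5% higher and 20.7% lower among all genes. Of 26 NRF2 targets 18 rose and 2 fell. Only 1 fell with median-of-ratios size factors, DESeq2, other filters or other library sets. The same held without overlapping genes, without P24 replicate 2 or 3 and without P30 replicate 1 or 3. The rises were led by the cystine transporter SLC7A11 at 117, 122 and 111 CPM at P30, against 43.9, 41.6 and 48 CPM at P24 (log2 difference 1.39, adjusted p = 9.47e-16). The quinone reductase NQO1 rose by 1.20. In the unfolded protein and integrated stress response list 19 of 33 rose and 7 fell. Those that rose included ATF3, DDIT3 and ATF4, factors of the integrated stress response, while the endoplasmic reticulum chaperones HSPA5 and HSP90B1 fell by 0.25 and 0.37. Of 39 p53 targets 16 rose and 9 fell, with a median of 0.00. CDKN1A, MDM2 and RRM2B were among those that rose, while the apoptosis genes PMAIP1 and BBC3 fell by 0.82 and 0.73, and BTG2, an antiproliferative gene, fell by 1.18. Among 36 secreted cytokines and growth factors linked to senescence 16 rose and 7 fell, and with a mean of at least 5 CPM required 10 rose and 4 fell. GDF15, a stress-induced cytokine, had 52.3, 57.0 and 45.5 CPM at P30, against 20.3, 18.5 and 28.2 CPM at P24 (log2 difference 1.20, adjusted p = 3.2e-09), and the chemokine CXCL12 had 38.8, 35.2 and 32.4 CPM at P30, against 80.9, 75.0 and 90.2 CPM at P24 (log2 difference -1.21, adjusted p = 3.88e-13). IL6 did not pass, at 2.34 ± 0.846 CPM at P30 and 2.14 ± 0.378 CPM at P24 (SD, n = 3 each). GDF15, MDM2, BBC3, DDIT3 and HSP90B1 are overlapping genes.

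Matrix genes also moved in both directions, beside 19.5% higher and 20.7% lower among all genes. The collagenase MMP1 had 122, 140 and 126 CPM at P30, against 352, 382 and 427 CPM at P24 (log2 difference -1.58, SE 0.0735, adjusted p = 3.94e-15). Of 25 proteases and inhibitors 14 fell and 6 rose, and the metalloprotease ADAMTS1 was among the rises, at 1.06. Of 29 collagen genes 11 fell and 10 rose (6 without overlapping genes such as COL3A1). COL1A1 fell by 0.33 and COL6A1 by 0.73, while COL3A1 rose by 0.32 and the basement membrane chain COL4A5 by 0.95. ELN, elastin, had 451, 433 and 484 CPM at P30, against 180, 202 and 158 CPM at P24 (2.54-fold higher at P30, adjusted p = 7.28e-12), and at P33 stood at 85.4 ± 18.0 CPM (SD, n = 3). The proteoglycan PRELP fell by 1.94. In the IGF axis 7 of 12 genes rose and 3 fell: IGFBP2 had 92.6, 82.8 and 76.4 CPM at P30, against 35.1, 36.3 and 31.8 CPM at P24 (log2 difference 1.29, adjusted p = 3.54e-14), the protease PAPPA and its inhibitor STC2 rose by 1.21 and 1.42, and the growth factor gene IGF2, which overlaps another gene, fell by 1.67.

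Cytosolic ribosomal protein genes mostly did not pass in this step. Of 77 tested, 8 fell, 4 rose and 65 did not pass, with a median log2 difference of 0.00 on rounding. With 1 library left out the counts were 4 to 8 that fell (5 without P24 replicate 1 or any single P30 replicate, 4 without P24 replicate 2) and 1 to 8 that rose (8 without P24 replicate 2, 2 without P24 replicate 1 or 3, 1 without P30 replicate 1). In the other steps 64 (P3 to P11), 55 (P11 to P24) and 72 (P30 to P33) of the 77 fell. Processed pseudogenes resemble these genes, which makes their counts uncertain. Of 34 proteasome genes 6 fell and 3 rose, and of 13 mitochondrially encoded mRNAs 4 rose and none fell (2 rose without P24 replicate 1 or P30 replicate 2, and 1 fell without the last). Lysosomal genes rose in 19 (12 without overlapping genes) and fell in 8 of 39, with the cathepsins CTSH and CTSC among the falls, by 1.94 and 1.02. Over all genes tested 20.7% fell and 19.5% rose, beside 20.5% and 48.7% of lysosomal genes. Of proteasome genes 17.6% fell and 8.82% rose.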

How the data were processed

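RNA of BJ fibroblasts was poly(A)-selected, primed with random hexamers and sequenced on a DNBSEQ-T7, per the labels' protocols. The authors deposited 1 table of raw read counts per gene for 21 libraries. The submitters' processing notes name FastQC 0.11.9, cutadapt 3.3, HISAT2 2.1.0, SAMtools 1.11, featureCounts 2.0.1 of Subread and DESeq2 1.34.0, with builds hg38 and GRCh38.p13. Whether reads were counted by strand was not stated.

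The main test was edgeR 4.0.16 (glmQLFit and glmQLFTest, R 4.3.3) with Benjamini-Hochberg adjustment over all genes tested, and a threshold of 0.05. It was fitted on the 15 passage libraries, so that all share 1 estimate of spread (10 residual degrees of freedom, biological coefficient of variation 5.04%). filterByExpr with a minimum count of 10 kept 15642 genes and removed 45902, and TMM factors ran between 0.933 and 1.07. Differences between steps were contrasts of the same fit, and SE is the log2 difference divided by the square root of F. Scripts were tested on simulated data. Alternatives were median-of-ratios size factors, DESeq2 1.42.0, other filters, other library sets, a replicate block, leaving out overlapping genes and leaving out each library.

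The members and gene lists were chosen with earlier results of these data known. Genes were named by a rule: a panel of 24, the 10 largest rises and 10 largest falls (protein-coding, passing, at least 5 CPM in the higher group, no overlap), up to 3 passing members a list with the largest difference, and the 3 largest differences each way from the P3 to P11 step. Other list members in the text were chosen after their values were seen. No further list test was run: lists are given as counts and medians. XIST and Y-linked genes were left out of the named genes. A few list members are not reported here.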

Additional observations from a re-analysis of the deposited data

How the results depend on the processing

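Under the alternatives, counts of all genes higher and lower at P30 stayed within 1.5 times of 3053 and 3234, and with 1 library left out they ran from 2615 to 2862 and from 2765 to 2933. Requiring a mean of 5 CPM left 117 genes higher and 200 lower by 2-fold. Leaving out overlapping genes tests fewer genes: the difference from the P3 to P11 step was then higher in 2545 and lower in 2415, that from P11 to P24 higher in 1488, and that from P30 to P33 higher in 2295 and lower in 2345. The share of called genes that were higher was 45.4% to 51.3% over these fits, against 48.6% in the fit reported. Of 129 named genes 7 changed their verdict in at least 1 fit. CCND1 turned to 0.003 with all 21 libraries, whose DOX and DMSO libraries hold reads of nested genes that the passage libraries lack and may have been counted otherwise, and ran from -0.06 to 0.068 with 1 library left out, and CDKN1B from -0.047 to 0.06, neither passing. CDKN2B, CDKN2C, PFKFB4, RPL39L and MT-ND2 lost their calls in some fits, and the cause was not tested. The fit of the 6 libraries alone cannot give the step differences.

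The labels do not say whether equal replicate numbers mark a shared culture or day. Deviations of libraries with the same number correlated at -0.0257, -0.0101 and 0.0553, and those with unlike numbers at -0.0536 to 0.0717. With 3 libraries a passage these values cannot decide whether the samples are paired. With the replicate block 3025 genes were higher and 3200 lower, and CDKN2B was not called (adjusted p = 0.0565).

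Depth limits the low genes: with 12.95 to 21.87 M counts a library, values near 1 CPM rest on few reads.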

Other observations

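KIF23-AS1, an antisense RNA at the gene of the cytokinesis kinesin KIF23, was at 45.5 ± 3.27 CPM at P30 and 12.7 ± 1.51 CPM at P24 (SD, n = 3 each), a log2 difference of 1.83 (edgeR adjusted p = 2.48e-14), and at 9.72 CPM at P33. KIF23 itself fell by 0.48 on the log2 scale. Since strand use in counting is not known, reads of the pair cannot be told apart with certainty. The gene was chosen after its values were seen.

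Contractile and TGF-beta response genes moved in both directions, with 9 of 24 that rose and 8 that fell (5 with a mean of at least 5 CPM required). The TGF-beta feedback inhibitor SMAD7 rose by 1.36, calponin (CNN1) by 0.58 and tropomyosin (TPM1) by 0.46, whereas the matrix protein TGFBI fell by 0.82, LTBP2 by 0.95 and SMAD3 by 0.39. Of 14 telomere genes 4 rose, 4 fell and 6 did not pass, with a median of -0.05 (19.5% and 20.7% of all genes rose and fell). The shelterin members TERF1, TERF2IP, POT1 and TERF2 rose by 0.35, 0.39, 0.30 and 0.20, and the telomerase ribonucleoprotein genes GAR1, DKC1, NHP2 and WRAP53 fell by 0.39, 0.27, 0.26 and 0.42. This grouping was made after the values were seen and was not tested. TERF2 and DKC1 are overlapping genes.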
